A study of Chlorocebus aethiops with 10 samples.

Results

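The enzymes that turn cholesterol into conjugated bile acids were followed in liver biopsies of African green monkeys (Chlorocebus aethiops). They were chosen by gene symbol from a list of 10: CYP7A1, CYP8B1, CYP27A1, CYP7B1, CYP39A1, HSD3B7, AKR1D1, AKR1C4, BAAT and SLC27A5. Of these, 9 had a feature in the probe table, 1 feature each, among 16583 genes in all, and HSD3B7 was not analysed here. The treated group held 5 obese adult females given antimiR-33a/b, an LNA (locked nucleic acid) antisense compound that blocks the microRNAs miR-33a and miR-33b, at 20 mg/kg under the skin on day 0 and 5 mg/kg each week. The vehicle group held 5 obese adult females given 0.9% saline. All 10 animals had been on a high-fat diet lasting 12 weeks, and their livers were biopsied on day 57, after 8 weeks of treatment. The animals' ages in years are not given in the labels, and the study's single-compound groups (antimiR-33a, antimiR-33b) were not analysed here.

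The liver makes bile acids from cholesterol along a classical route, which opens with 7-alpha-hydroxylation of cholesterol by CYP7A1, and an alternative route, which opens with 27-hydroxylation by CYP27A1. Shared steps then reshape the sterol rings and shorten the side chain, and the product is joined to glycine or taurine before it leaves the hepatocyte in bile. This is the main way in which the body disposes of cholesterol, and CYP7A1 is among the genes reported as targets of miR-33.

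Each animal gave 1 array, so the replicates are biological. Animals are numbered 1 to 5 within each group, and the numbers pair no animals. Values were centred per feature by the authors and are read as log2 units, a base that no label or header states. They compare animals and not genes, and signal over background is unknown. The array medians ran from -0.054 to 0.061. Over all features, vehicle animal 4 correlated at -0.092 to 0.34 with the other vehicle animals, whose own pairs correlated at 0.46 to 0.71, while treated pairs ranged from -0.24 to 0.43. Calls gained without vehicle animal 4 are given beside the values over all 10 animals.

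Treated livers were set against vehicle livers to ask which of the enzymes changed when miR-33 was inhibited. AKR1C4, a 3-alpha-hydroxysteroid dehydrogenase of the shared ring steps, was 1.25-fold higher in treated livers and was the 1 enzyme of 9 that passed. That call was lost when hepatocyte markers or a contrast of gene families were taken into account, as given below. CYP7A1 and AKR1D1 had the widest differences, 1.5-fold and 1.53-fold higher in treated livers, but missed the threshold over all genes. CYP8B1, the sterol 12-alpha-hydroxylase, was the 1 enzyme with a negative difference, at 0.864-fold. Of all genes tested, 20.5% passed limma's adjusted p threshold of 0.05: 13.7% were higher in treated livers and 6.8% were lower. With 1 of 9 called, or 11.1%, the share among the enzymes lay below that background. The groups were apart, with no overlap of values, for 1 of the 9 enzymes, against 13.3% of all genes (8.79% with treated values above and 4.52% with treated values below). The difference was positive for 8 of the 9 enzymes, against 59.2% of all genes, with a median of 0.15 against 0.039 over all genes. An unadjusted limma p under 0.05 was reached by 5 of the 9, against 35.6% of all genes. These counts describe a list chosen by name and test nothing about it.

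**Figure D1:**
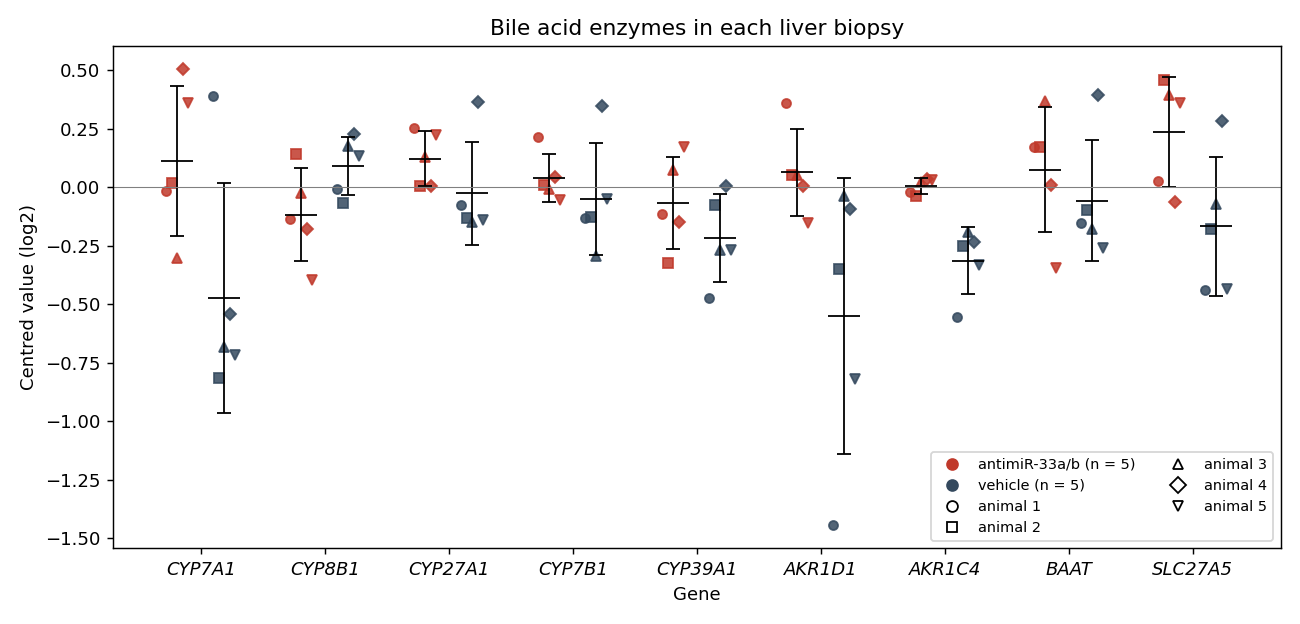
The vertical axis gives the centred value (log2) of each of 9 bile acid enzymes in each animal, antimiR-33a/b left of vehicle for each gene, with symbols for animal numbers and bars for the mean and SD (n = 5 each). The groups are apart for AKR1C4 alone, and vehicle animal 1 lies highest of the vehicle animals for CYP7A1 and lowest for AKR1D1.

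CYP7A1 sets the rate of the classical route. Its values were -0.016, 0.016, -0.30, 0.51 and 0.36 in treated animals 1 to 5, and 0.39, -0.81, -0.68, -0.54 and -0.72 in vehicle animals 1 to 5. Every treated animal lay above 4 of the vehicle animals, while vehicle animal 1 lay above all treated animals but animal 4. The means were 0.11 ± 0.32 in treated and -0.47 ± 0.49 in vehicle livers (SD, n = 5 each), a difference of 0.59 (SE 0.21, 95% confidence interval 0.13 to 1.04). Limma's adjusted p was 0.0632, and an exact permutation test (two-sided, all ways of splitting the animals 5 and 5) gave p = 0.0635. Without vehicle animal 1 the difference was 0.80 and limma's adjusted p was 0.0078. It also passed with array weights (0.64, adjusted p = 0.0478), but missed the threshold in 16 of 18 alternative settings. The exact permutation test adjusted over all genes is among these 18 settings, and it called no gene (smallest adjusted p = 0.0596). Without treated animal 4 the difference was 0.49 (limma adjusted p = 0.138), and without vehicle animal 2 it was 0.50 (adjusted p = 0.139). The spread of CYP7A1 within groups was wider than that of 99.0% of all genes.

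CYP8B1 adds the 12-alpha-hydroxyl group that makes cholic acid, so its level sets the balance between cholic and chenodeoxycholic acid. Treated animals 1 to 5 had -0.13, 0.14, -0.025, -0.18 and -0.40, and vehicle animals 1 to 5 had -0.0058, -0.067, 0.18, 0.23 and 0.13. In 3 treated animals CYP8B1 lay below every vehicle animal, and treated animal 2 lay within the upper vehicle values. The difference was -0.21 (SE 0.094, 95% confidence interval -0.41 to -0.0085), with a limma adjusted p of 0.126. Without treated animal 2 it was -0.28 and passed (limma adjusted p = 0.0429), and without treated animal 5 it was -0.14 (adjusted p = 0.271). CYP8B1 missed the threshold in 16 of 18 alternative settings.

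CYP8B1, the 12-alpha-hydroxylase of a later branch, was also set against CYP7A1 within each animal, 1 of 3 such contrasts. This contrast restates the differences of its 2 genes and is no separate support for either. CYP8B1 minus CYP7A1 was -0.12, 0.13, 0.28, -0.68 and -0.76 in treated animals 1 to 5, and -0.40, 0.75, 0.86, 0.77 and 0.85 in vehicle animals 1 to 5. All treated animals lay below 4 of the 5 vehicle animals, and 2 of them lay below vehicle animal 1 as well. The treated mean was -0.23 ± 0.47 and the vehicle mean 0.57 ± 0.54 (SD, n = 5 each), a difference of -0.80 (95% confidence interval -1.53 to -0.059). In an exact two-sided permutation test p was 0.0476, and 0.143 after adjustment over the 3 contrasts, so it did not pass. Without vehicle animal 1 the difference was -1.04 and the adjusted exact p was 0.0238.

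CYP27A1 and CYP7B1 carry the alternative route. CYP27A1, the mitochondrial sterol 27-hydroxylase, had 0.25, 0.0069, 0.13, 0.0065 and 0.22 in treated animals 1 to 5, and -0.078, -0.13, -0.15, 0.36 and -0.14 in vehicle animals 1 to 5. All treated animals lay above 4 vehicle animals and below vehicle animal 4. The difference was 0.15 (SE 0.098, 95% confidence interval -0.062 to 0.36, limma adjusted p = 0.294), and without vehicle animal 4 it was 0.25 and passed (limma adjusted p = 0.02). In the other 17 of 18 alternative settings CYP27A1 missed the threshold. CYP7B1, the oxysterol 7-alpha-hydroxylase that follows CYP27A1, had 0.21, 0.0085, -0.0085, 0.044 and -0.053 in treated animals and -0.13, -0.13, -0.29, 0.35 and -0.051 in vehicle animals 1 to 5. Vehicle animal 4 was again above all treated animals, 4 of which lay above the other vehicle animals. The difference was 0.092 (SE 0.10, 95% confidence interval -0.13 to 0.31, limma adjusted p = 0.545). Without vehicle animal 4 the CYP7B1 difference was 0.19, with a limma adjusted p of 0.0672, and without vehicle animal 3 or treated animal 1 it was 0.032 or 0.049.

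CYP7A1 minus CYP27A1, the openings of both routes set against each other, averaged -0.01 ± 0.36 in treated and -0.45 ± 0.53 in vehicle livers (SD, n = 5 each). The difference of 0.44 (95% confidence interval -0.23 to 1.10) gave an adjusted p of 0.167 in the exact permutation test. Without vehicle animal 1 it was 0.67 and the adjusted exact p was 0.0238.

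CYP39A1, a 24-hydroxycholesterol 7-alpha-hydroxylase, takes up sterols from a smaller side route. Treated animals 1 to 5 had -0.11, -0.33, 0.076, -0.15 and 0.17, and vehicle animals 1 to 5 had -0.47, -0.075, -0.27, 0.0069 and -0.27. Only treated animals 3 and 5 lay above the vehicle range. The difference was 0.15 (SE 0.11, 95% confidence interval -0.079 to 0.37), with a limma adjusted p of 0.334, and it was 0.084 without vehicle animal 1 and 0.088 without treated animal 5.

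The paired ring enzymes AKR1D1 and AKR1C4 act one after the other on intermediates of both routes. AKR1D1, the 5-beta-reductase that bends the sterol rings, had 0.36, 0.054, 0.052, 0.0063 and -0.15 in treated animals 1 to 5, and -1.45, -0.35, -0.038, -0.093 and -0.82 in vehicle animals 1 to 5. In 4 treated animals AKR1D1 lay above every vehicle animal, and vehicle animals 1 and 5 lay far below the rest. The SD was 0.19 in treated and 0.59 in vehicle livers (n = 5 each), and the spread within groups was wider than that of 99.2% of all genes. The difference was 0.61 (SE 0.22, 95% confidence interval 0.14 to 1.09, limma adjusted p = 0.0635). Without vehicle animal 1 the AKR1D1 difference was 0.39, and it passed without vehicle animal 3 (0.74, limma adjusted p = 0.0387) or vehicle animal 4 (0.73, 0.0319).

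AKR1C4 reduces the 3-keto group left by AKR1D1. It had -0.022, -0.037, 0.022, 0.036 and 0.032 in treated animals 1 to 5, and -0.55, -0.25, -0.19, -0.24 and -0.33 in vehicle animals 1 to 5. All treated animals lay above all vehicle animals, as they did for 8.79% of all genes, and the treated values spanned a much narrower range. The means were 0.0061 ± 0.033 in treated and -0.31 ± 0.14 in vehicle livers (SD, n = 5 each). The difference was 0.32 (SE 0.069, 95% confidence interval 0.17 to 0.47, limma adjusted p = 0.009), and an exact permutation test gave p = 0.0079, the smallest it can give. AKR1C4 kept its call without any 1 of the 10 animals, with differences from 0.26 to 0.35. The call was lost relative to hepatocyte markers (0.080, limma adjusted p = 0.468), with the family contrast as a covariate (0.26, adjusted p = 0.127) and in the exact permutation test adjusted over all genes (adjusted p = 0.0596).

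AKR1C4 has close paralogues whose transcripts could reach the same feature, and probe sequences were not used here. Those paralogues, named after their values were seen, are broader steroid and aldehyde reductases. AKR1C3 rose by 0.22 (SE 0.073, limma adjusted p = 0.0468), AKR1C2 differed by 0.20 (adjusted p = 0.0639, and 0.0324 without vehicle animal 3) and AKR1C1 by 0.16 (adjusted p = 0.186). Vehicle animal 1 was the lowest of the 10 animals for each of these paralogues, as it was for AKR1C4. The part of cross-hybridization in the AKR1C4 value was not tested. AKR1C3 missed the threshold in 15 of 18 alternative settings, with adjusted p up to 0.895.

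**Figure D2:**
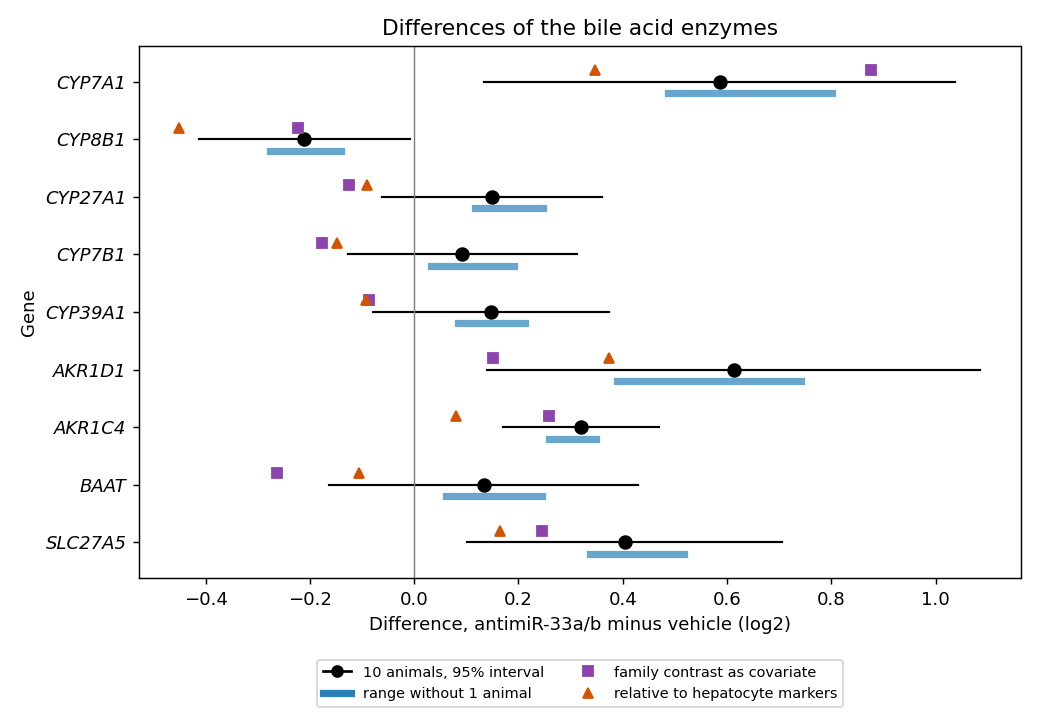
The horizontal axis gives the difference of each enzyme, antimiR-33a/b minus vehicle (log2), as a point with its 95% interval over 10 animals, a bar for the range without any 1 animal, and marks for both fits that adjust for array-wide or hepatocyte marker levels. CYP27A1, CYP7B1, CYP39A1 and BAAT turn negative in both adjusted fits, while CYP7A1, AKR1D1, AKR1C4 and SLC27A5 stay above 0 and CYP8B1 stays below.

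SLC27A5 and BAAT complete the pathway by conjugation. SLC27A5, the bile acyl-CoA synthetase, had 0.028, 0.46, 0.39, -0.061 and 0.36 in treated animals 1 to 5, and -0.44, -0.18, -0.071, 0.28 and -0.43 in vehicle animals 1 to 5. In 3 treated animals SLC27A5 lay above every vehicle animal, and vehicle animal 4 lay above the other 2. The difference was 0.40 (SE 0.14, 95% confidence interval 0.10 to 0.71), with a limma adjusted p of 0.0568. Without vehicle animal 4 it was 0.52 and passed (limma adjusted p = 0.0104), and it also passed without treated animal 4 (0.48, adjusted p = 0.04) and with array weights (0.44, adjusted p = 0.0198). SLC27A5 missed the threshold in the other 15 of 18 alternative settings, and differed by 0.34 without vehicle animal 1 (limma adjusted p = 0.136).

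BAAT, the transferase that joins bile acids to glycine or taurine, had 0.17, 0.17, 0.37, 0.011 and -0.35 in treated animals 1 to 5, and -0.15, -0.095, -0.18, 0.39 and -0.26 in vehicle animals 1 to 5. Vehicle animal 4 was the highest and treated animal 5 the lowest of all 10. The difference was 0.13 (SE 0.14, 95% confidence interval -0.16 to 0.43, limma adjusted p = 0.513). Without vehicle animal 4 or treated animal 5 it was 0.25 or 0.24, and without treated animal 3 or vehicle animal 5 it was 0.060 or 0.083. BAAT minus SLC27A5 within an animal averaged -0.16 ± 0.35 in treated and 0.11 ± 0.14 in vehicle livers (SD, n = 5 each). That difference of -0.27 (95% confidence interval -0.66 to 0.12) had an adjusted p of 0.167 in the exact permutation test, and without treated animal 5 it was -0.13.

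The enzymes were also compared pair by pair, without a reference value from other gene pairs. Over the 10 animals, 27 of the 36 pairs of enzymes had a positive Pearson r and 9 a negative one, with a median of 0.36. AKR1D1 and AKR1C4 had r = 0.876 (permutation p = 0.0011, 0.0302 adjusted over the 36 pairs) and Spearman's rho = 0.673 (permutation p = 0.038, adjusted 0.271). CYP27A1 and CYP7B1 had r = 0.831 (permutation p = 0.0017, adjusted 0.0302) and rho = 0.758 (permutation p = 0.015, adjusted 0.271). No other pair passed by r. With both group means subtracted, these r values were 0.864 and 0.822. Both r values were lower without the 2 animals farthest from the median of the first-named enzyme. Such an omission narrows that enzyme's range, so it cannot show that the relations rested on those animals. For the first pair r was 0.514 without vehicle animals 1 and 5 (exact permutation p = 0.194). For the second pair it was 0.54 without treated animal 1 and vehicle animal 4 (exact permutation p = 0.129).

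Between CYP7A1 and the ring enzymes AKR1D1 and AKR1C4, r over the 10 animals was -0.0531 and 0.266 (adjusted permutation p = 0.893 and 0.657). With group means subtracted r was -0.704 to AKR1D1 and -0.678 to AKR1C4. Without vehicle animal 1 (n = 9, an omission chosen after seeing the data) these values were -0.114 and 0.298, and r as measured was 0.502 and 0.875. Vehicle animal 1 was the lowest of the 10 animals for both ring enzymes, so this omission too narrows their range. CYP7A1 and CYP8B1 had r = -0.615 (permutation p = 0.0579, adjusted 0.231) and rho = -0.442 (permutation p = 0.206, adjusted 0.39). Without the 2 animals farthest out in CYP7A1 that r was -0.707, and with group means subtracted it was -0.40.

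**Figure D3:**
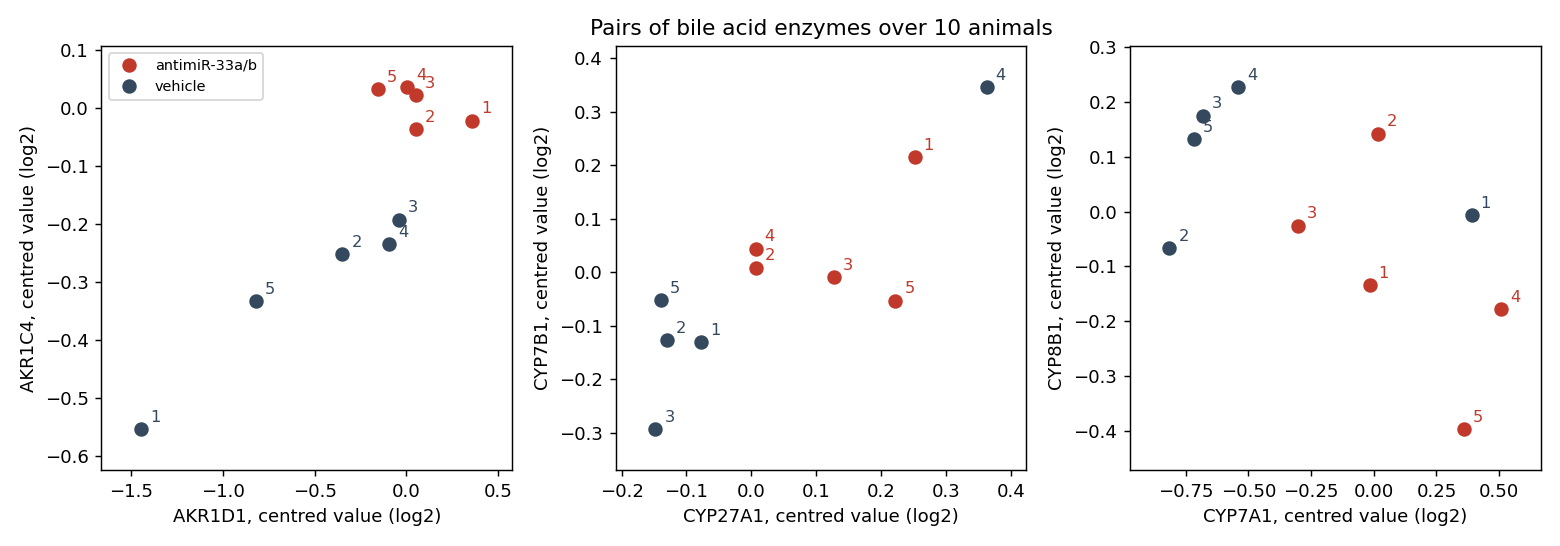
Each panel sets the centred values (log2) of one enzyme against another, 1 point per animal with its number, for AKR1D1 and AKR1C4, CYP27A1 and CYP7B1, and CYP7A1 and CYP8B1. Vehicle animal 1 lies at the low end of AKR1D1 and AKR1C4, vehicle animal 4 at the high end of CYP27A1 and CYP7B1, and the points of CYP7A1 and CYP8B1 give r = -0.615, which did not pass (adjusted permutation p = 0.231).

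Of the 10 animals, vehicle animal 1 was the lowest for 4 enzymes (CYP39A1, AKR1D1, AKR1C4 and SLC27A5), and vehicle animal 4 was the highest for 4 (CYP8B1, CYP27A1, CYP7B1 and BAAT). The median over the 9 enzymes lay between 0.0065 and 0.052 in treated animals. It lay between -0.27 and -0.13 in vehicle animals 1, 2, 3 and 5, and at 0.23 in vehicle animal 4. The SD was lower in treated than in vehicle livers for 6 of 9 enzymes, or 66.7%, against 52.9% of all genes.

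Among all other genes, those most like CYP7A1 over the 10 animals were FGF21, a hormone secreted by the liver, with r = 0.909 (rho = 0.952), FGD5, a guanine nucleotide exchange factor, with r = 0.902, RAMP3, a receptor-associated protein, with r = 0.882, SVIL, an actin-binding protein, with r = 0.874, and KNTC1, a kinetochore protein, with r = 0.862. They are the 5 highest values over all genes and are given as a description. With both group means subtracted, r ranged from 0.80 for RAMP3 to 0.928 for SVIL. For CYP7A1 and each of these 5 genes vehicle animal 1 was the highest of its group, and r without that animal was not computed. FGF21 had 0.21, 0.21, 0.045, 0.82 and 0.39 in treated animals 1 to 5, and 0.34, -0.18, -0.15, 0.074 and -0.0029 in vehicle animals 1 to 5. As for CYP7A1, treated animal 4 was the highest and vehicle animal 1 the highest of its group. FGF21 differed by 0.32 (SE 0.14, limma adjusted p = 0.108; 0.20 without treated animal 4), and none of the 5 passed.

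The other enzymes of bile acid metabolism held 3 called genes of 12 measured, or 25% against 20.5% of all genes, with 2 higher and 1 lower in treated livers. UGT2B4, which glucuronidates bile acids, rose by 0.34 (SE 0.067, limma adjusted p = 0.0063), with treated values from -0.09 to 0.16 and vehicle values from -0.40 to -0.18. ACOX2, the peroxisomal oxidase that shortens the bile acid side chain, rose by 0.44 (SE 0.11, adjusted p = 0.0179). HSD17B4, which acts after ACOX2 and was named after its value was seen, differed by 0.31 (adjusted p = 0.118). Without vehicle animal 4 HSD17B4 differed by 0.44 and passed (adjusted p = 0.0119), as it did without treated animal 5 (0.41, adjusted p = 0.0438). CH25H, which makes 25-hydroxycholesterol and lies outside the main route, fell by 0.25 (SE 0.081, adjusted p = 0.0443), a call lost in 7 of 10 fits without 1 animal (adjusted p up to 0.106). With the family contrast as a covariate CH25H differed by -0.043 (adjusted p = 0.801), and relative to hepatocyte markers it fell by 0.49 (0.0033). CYP46A1, the cholesterol 24-hydroxylase, had all treated values above all vehicle values, as did 8.79% of all genes, and differed by 0.16 (adjusted p = 0.0584). STAR, which carries cholesterol into mitochondria, differed by 0.20 (adjusted p = 0.0739) and passed with array weights (0.22, 0.0378), with arrays shifted to the same median (0.20, 0.0475) and with the covariate (0.39, 0.0412).

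Among regulators of the pathway, 2 of 11 measured genes passed, or 18.2% against 20.5% of all genes, 1 in each direction. NR5A2, the nuclear receptor LRH-1 that binds the CYP7A1 and CYP8B1 promoters, had 0.14, 0.12, 0.085, 0.19 and 0.046 in treated animals 1 to 5, and -0.15, -0.16, -0.18, -0.14 and -0.095 in vehicle animals 1 to 5. The groups did not overlap, with treated values above as for 8.79% of all genes, and the difference was 0.26 (SE 0.052, limma adjusted p = 0.0062). MAFG, a repressor of bile acid synthesis genes in mice, had -0.17, -0.016, -0.33, -0.08 and -0.19 in treated animals, and 0.22, 0.071, 0.15, 0.056 and 0.095 in vehicle animals 1 to 5. Its groups were apart as well, with treated values below as for 4.52% of all genes, and it fell by 0.28 (SE 0.067, adjusted p = 0.0141). Both passed in all 10 fits without 1 animal.

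NR0B2, the corepressor SHP through which the bile acid receptor limits CYP7A1, was named after its value was seen. It ran from -0.64 to 1.23 in treated and from -0.89 to 0.75 in vehicle animals, a difference of 0.43 (SE 0.35, limma adjusted p = 0.402). Single animals moved it: without treated animal 1 or vehicle animal 5 it was 0.18 or 0.25, and without vehicle animal 4 or treated animal 3 it was 0.66 or 0.64. The xenobiotic receptor NR1I3 (0.17, adjusted p = 0.173) and the shared receptor partner RXRA (-0.16, adjusted p = 0.187) did not pass. RXRA did relative to hepatocyte markers (-0.40, 0.0057), a reading in which 5931 genes were called lower.

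Transporters of bile acids and biliary sterols held 4 called genes of 12, or 33.3%, against 20.5% of all genes. The uptake carriers SLCO1B1 (0.47, limma adjusted p = 0.0021) and SLCO1B3 (0.48, adjusted p = 0.0032) rose. Both had all treated values above all vehicle values, as did 8.79% of all genes. With the family contrast as a covariate both missed the threshold (0.38, adjusted p = 0.0575, for SLCO1B1 and 0.39, 0.0759, for SLCO1B3). Relative to hepatocyte markers SLCO1B1 differed by 0.23 (0.0638) and SLCO1B3 rose by 0.24 (0.0436). The sterol exporter subunit ABCG5 rose by 0.56 (adjusted p = 0.0475), a call lost in 8 of 10 fits without 1 animal and with the family covariate (-0.19, adjusted p = 0.31) or relative to hepatocyte markers (0.33, 0.144), while its partner ABCG8 differed by 0.20 (adjusted p = 0.206). SLC51B, a subunit of the exporter to blood, fell by 0.32 (adjusted p = 0.0232), which was lost in 4 of 10 such fits and with the family covariate (-0.090, adjusted p = 0.601). Relative to hepatocyte markers SLC51B passed (-0.56, limma adjusted p = 0.0014). Its partner SLC51A differed by -0.12 (adjusted p = 0.154). SLC51A passed without vehicle animal 4 (-0.16, adjusted p = 0.0458) and differed by -0.013 with the covariate. It also passed relative to hepatocyte markers (-0.36, 0.0090), a reading in which 5931 genes were called lower.

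**Figure D4:**
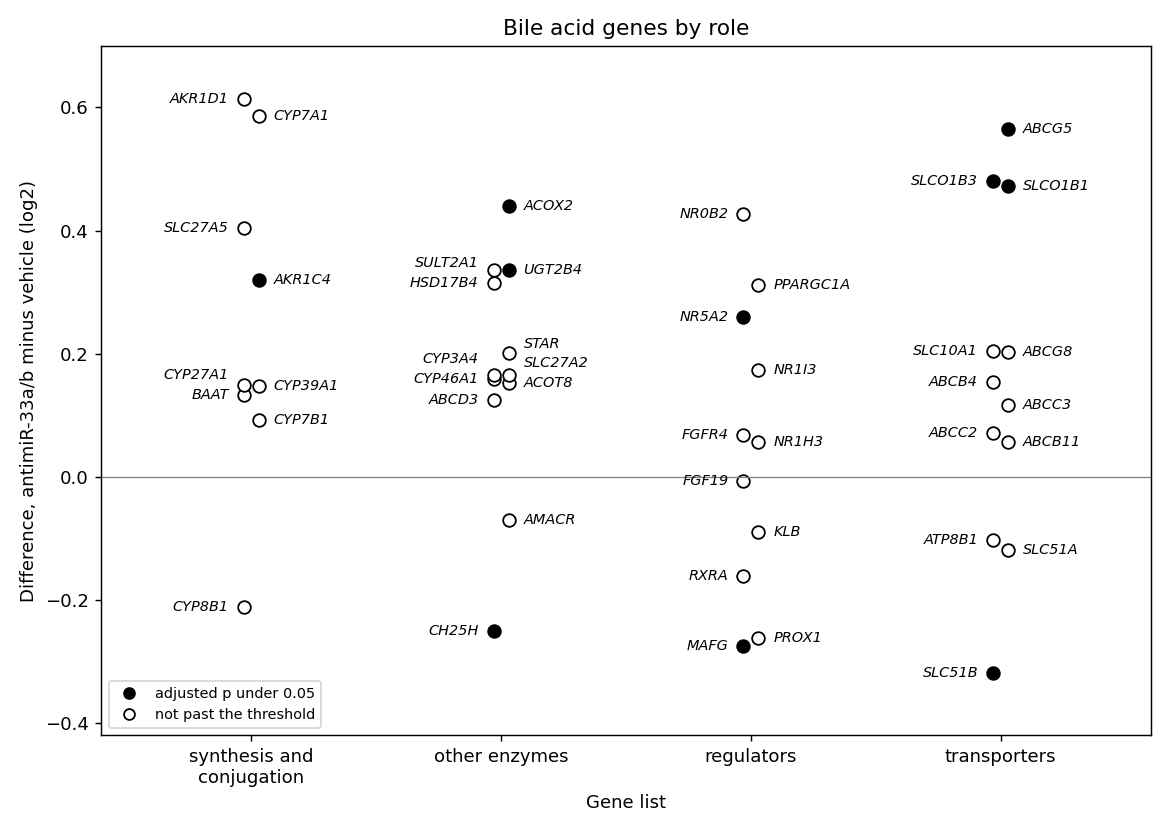
The vertical axis gives the difference, antimiR-33a/b minus vehicle (log2), of each measured gene in 4 lists: the 9 synthesis and conjugation enzymes, 12 other enzymes, 11 regulators and 12 transporters, with filled points for a limma adjusted p under 0.05. Filled points number 1, 3, 2 and 4 in these lists, or 11.1%, 25%, 18.2% and 33.3%, against 20.5% of all genes.

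As a check on treatment, the miR-33 target ABCA1, a cholesterol exporter, rose by 0.45 (SE 0.11, limma adjusted p = 0.0141), the host gene SREBF2 fell by 0.20 (adjusted p = 0.038) and SREBF1 differed by -0.10 (adjusted p = 0.418). SREBF2 was lost in 7 of 10 fits without 1 animal and with the family covariate (-0.11, adjusted p = 0.404). ABCA1 was lost with that covariate (0.44, adjusted p = 0.132) and relative to hepatocyte markers (0.21, 0.172). In the latter reading SREBF2 (-0.44, limma adjusted p = 0.0041) and SREBF1 (-0.34, 0.0259) both passed, with 5931 genes called lower.

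Hepatocyte markers moved with the groups. Of 11 measured, 6 rose (54.5%) and 0 fell in limma, where 13.7% of all genes were called higher and 6.8% lower. An unadjusted limma p under 0.05 was reached by 8 of the 11, against 35.6% of all genes, and their median difference was 0.26. The mean of these markers per animal ran from -0.11 to 0.12 in treated and from -0.38 to -0.059 in vehicle animals, and vehicle animal 1 was the lowest. Pericentral hepatocyte markers had 1 called gene of 8, which was lower, and periportal markers 0 of 6 (1 at an unadjusted limma p under 0.05). Cholangiocyte markers had 1 of 7, which was lower, and T and NK cell markers 4 of 8, with 1 higher and 3 lower. Macrophage and red cell markers had 0 of 8 and 0 of 4 (0 and 1 at an unadjusted limma p under 0.05). Over all genes 20.5% were called. In a biopsy, fewer hepatocytes and less RNA per hepatocyte cannot be told apart.

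Read relative to the mean of the hepatocyte markers in the same animal, CYP7A1 differed by 0.35 (limma adjusted p = 0.181), while CYP8B1 fell by 0.45 (adjusted p = 0.0029). Over all genes that reading gave 5931 lower and 135 higher calls, against 1128 lower and 2271 higher without it. The lower calls of CYP8B1, MAFG, CH25H, RXRA, SLC51A, SLC51B, SREBF1 and SREBF2 in that reading were thus shared with many genes. That reading takes the same amount, the group difference of the marker mean, off the difference of every gene. Beyond that shift the CYP8B1 difference is its value without the reading, -0.21, which did not pass (limma adjusted p = 0.126). A contrast of housekeeping gene families minus families that liver does not normally express ran from -0.087 to 0.23 in treated and from -0.29 to -0.013 in vehicle animals. With it as a covariate 0 of 9 enzymes passed in limma, 2 of them at an unadjusted p under 0.05. CYP7A1 then differed by 0.88 (SE 0.33, adjusted p = 0.113) and AKR1D1 by 0.15 (SE 0.32, adjusted p = 0.783). NR5A2 differed by 0.26 with the covariate (adjusted p = 0.0533) and by 0.02 relative to hepatocyte markers (0.882). MAFG differed by -0.13 with the covariate (adjusted p = 0.313) and fell by 0.51 relative to the markers (0.0016). UGT2B4 differed by 0.29 (adjusted p = 0.0918) and 0.096 (0.391) in those fits, and ACOX2 by 0.082 (0.685) and 0.20 (0.154). The part of hepatocyte markers and of the family contrast in these differences was not tested.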

How the data were processed

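Liver RNA of 10 animals was profiled on one-colour arrays, per the labels' protocols from 1 µg of total RNA labelled with Cy3. The authors' deposited values, centred per feature, were read here as log2 units. How they were normalized and centred, and on which log base, is not given in the sources used here. Under a natural log every fold would lie further from 1. The table held 45033 features, of which 18188 had a gene symbol. Features of a gene were averaged, giving 16583 genes.

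The treated minus vehicle difference of every gene was estimated in R 4.3.3 by lmFit and eBayes of limma 3.58.1 over 10 arrays without covariates. P-values were adjusted by Benjamini-Hochberg across the 16583 genes, and 0.05 was the threshold. The fit was tested on simulated data. The 3 within-animal contrasts were tested by an exact permutation test and pairs of enzymes by 100000 permutations. The family contrast used 428 housekeeping and 513 silent genes. No filter on dim features was possible on centred values. Members and lists were chosen with earlier results of these data known. Named were all members, the miR-33 check genes, the genes past the threshold and up to 2 others of each pathway list, and the 5 genes most like CYP7A1; marker lists are given as counts. Alternatives were 8 other settings and the omission of each animal. The number of arrays limits the precision.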

Additional observations from a re-analysis of the deposited data

Results flagged for a closer look

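In groups of 5, the highest or lowest animal was marked when its gap to the nearest animal was over 0.71 of the group's range, which chance does in about 1 in 20 groups; 80 group values were examined and 8 were marked, all in vehicle animals. Vehicle animal 1 was marked for CYP7A1 (0.39, next -0.54) and for RAMP3 (0.075, next -0.04). It was also marked for CYP7A1 minus CYP27A1 (0.47, next -0.53) and CYP8B1 minus CYP7A1 (-0.40, next 0.75), which share the CYP7A1 value. Vehicle animal 4 was marked for CYP27A1 (0.36, next -0.078), BAAT (0.39, next -0.095), HSD17B4 (0.27, next -0.29) and SLC51A (-0.037, next 0.14).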

How the results depend on the processing

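The count of enzymes called higher, 1, was the same after quantile normalization, after a shift of arrays to the same median, with each feature on its own and with trend and robust settings. It was 3 with array weights, 0 with the family contrast as a covariate and 0 relative to hepatocyte markers (2 of 9 at an unadjusted limma p under 0.05 in each), and 0 in the exact permutation test (3 of 9 at an unadjusted p under 0.05), whose smallest adjusted p over all genes is 0.0596. Without 1 animal it ranged from 1 to 4, with 4 without vehicle animal 4 and 2 without vehicle animal 1, vehicle animal 3 or treated animal 4. The count called lower, 0, was 1 relative to hepatocyte markers and ranged from 0 to 1 without 1 animal. The median difference of the enzymes, 0.15, was -0.087 with the covariate and -0.090 relative to hepatocyte markers. Over all genes, 2271 higher and 1128 lower calls became 2852 and 1503 with array weights and 686 and 160 with the covariate. They became 135 and 5931 relative to hepatocyte markers. In the exact permutation test they were 0 and 0, with 5454 genes at an unadjusted p under 0.05. Without 1 animal they ranged from 1289 to 2514 and from 636 to 1603. The contrast CYP7A1 minus CYP27A1 ranged from 0.31 to 0.67 and CYP8B1 minus CYP7A1 from -1.04 to -0.67 without 1 animal, and both passed without vehicle animal 1, while BAAT minus SLC27A5 ranged from -0.35 to -0.13. The correlations of CYP7A1 without vehicle animal 1 were added after the data were seen.

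Signs turned in the covariate fit and in the fit relative to hepatocyte markers. With the covariate the differences were -0.13 for CYP27A1, -0.18 for CYP7B1, -0.087 for CYP39A1, -0.26 for BAAT, -0.0070 for NR1I3, -0.19 for ABCG5, -0.15 for ABCG8, -0.010 for AKR1C1, -0.48 for NR0B2 and -0.13 for HSD17B4. Relative to hepatocyte markers they were -0.090 for CYP27A1, -0.15 for CYP7B1, -0.092 for CYP39A1, -0.11 for BAAT, -0.080 for CYP46A1, -0.038 for STAR, -0.066 for NR1I3 and -0.036 for ABCG8. They were -0.082 for AKR1C1, -0.042 for AKR1C2, -0.018 for AKR1C3, -0.12 for FGD5, -0.094 for RAMP3, -0.13 for SVIL and -0.13 for KNTC1. Relative to hepatocyte markers the same amount was taken off the difference of every gene, so small positive differences turned negative by arithmetic. The cause of the turns with the covariate was not tested. No paired analysis was possible because the labels carry no numbers that pair animals. Signal over background is unknown, so a dim feature could not be told from a bright one.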
